A study of Homo sapiens with 12 samples.

Results

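The response of HT1080 cells to poly(dA:dT) was described with their mutant NRAS gene left intact. HT1080 is an established human fibrosarcoma line whose NRAS gene carries an activating mutation, and poly(dA:dT) is a synthetic double-stranded DNA. In the wider series, cells received a control siRNA (siNC) or an siRNA against mutant NRAS (siQ61K), each with DMSO or poly(dA:dT), in 4 groups of 3 RNA-seq libraries. The comparison here set the 3 libraries of siNC with poly(dA:dT) against the 3 libraries of siNC with DMSO. All 6 siNC libraries thus carried the mutant NRAS gene and the same control siRNA, and by their labels only the added agent differed. The genes described are those with at least 1 TPM, an abundance per transcript scaled for its length and for the library total, in at least 3 of these 6 libraries. There were 13555 such genes, of 14722 fitted over all 12 libraries and 56227 entries in the deposited table.

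Several limits of the model apply throughout. The cells are 1 line, and no source used here gives the dose or the duration of the poly(dA:dT) treatment. The labels name DMSO as the control treatment, and no control for the delivery of DNA is named. They do not say whether replicate libraries stem from different cultures, and p-values therefore reflect the spread among the libraries at hand, which could be technical. In bulk RNA, fewer responding cells and less RNA per cell cannot be told apart. Column names of the table were matched to the sample titles by inference.

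Double-stranded DNA in the cytosol is sensed by cGAS, which signals through STING, and AT-rich DNA can also be transcribed by RNA polymerase III into RNA that RIG-I binds. Both routes lead through TBK1 and IRF3 to type I interferon, whose receptor signals through JAK kinases to transcription factors that include IRF9. Complexes holding IRF9 bind the interferon-stimulated response element (ISRE) in the promoters of interferon-stimulated genes, most of which encode antiviral proteins.

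The promoters of raised genes are shown first because 10 of the 11 genes that rose are interferon-stimulated genes. RefSeq promoter sequence (GRCh38.p14) was found for 9 of these 10. An ISRE, written as GAAA, any 2 bases and GAAA again, was searched on both strands over 300 bases (250 before to 50 after the annotated start) and was present in 6 of the 9. It occurred in 3.57% of all 35116 promoters in the table and in 2.84% of the 9856 promoters of genes measured here. The 6 stretches follow, 5′ to 3′ on the strand of the gene, with each ISRE match in capitals (in its reverse form, TTTC, 2 bases and TTTC, where it lies on the other strand). All lie upstream of, or reach just past, the annotated transcript start.
IFI6, chr1:27672226-27672398, minus strand: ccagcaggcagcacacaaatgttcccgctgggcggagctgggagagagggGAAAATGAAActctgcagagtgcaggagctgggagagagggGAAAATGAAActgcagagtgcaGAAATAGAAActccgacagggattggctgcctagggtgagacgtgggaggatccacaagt
IFIT1, chr10:89392457-89392579, plus strand: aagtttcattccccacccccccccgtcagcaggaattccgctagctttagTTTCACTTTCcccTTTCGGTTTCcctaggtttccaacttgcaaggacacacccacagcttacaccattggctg
IFITM1, chr11:313950-314043, plus strand: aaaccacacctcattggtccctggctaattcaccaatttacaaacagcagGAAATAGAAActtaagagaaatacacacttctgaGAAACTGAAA
IFI44, chr1:78649721-78649788, plus strand: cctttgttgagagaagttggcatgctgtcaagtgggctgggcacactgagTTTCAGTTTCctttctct
IFIT3, chr10:89327791-89327934, plus strand: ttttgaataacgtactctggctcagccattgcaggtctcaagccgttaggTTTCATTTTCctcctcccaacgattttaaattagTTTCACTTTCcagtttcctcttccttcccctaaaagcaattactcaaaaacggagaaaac
IFI27, chr14:94110578-94110700, plus strand: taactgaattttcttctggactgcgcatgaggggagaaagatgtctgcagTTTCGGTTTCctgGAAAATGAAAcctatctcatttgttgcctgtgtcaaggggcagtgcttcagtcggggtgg
IFI6 held 3 matches, IFI44 held 1, and the other 4 stretches held 2 each. The IRF9, OAS1 and PARP9 windows held no match, which says only that these letters are not in those 300 bases. A second element, the gamma-activated site written as TTC, any 3 bases and GAA, was found in 4 of the 9 promoters (IRF9, OAS1, IFITM1 and IFI27), against 7.66% of all promoters, and the IFITM1 and IFI27 copies overlap an ISRE. A match is a description of sequence and not a measured binding site.

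With poly(dA:dT), few genes passed the test, and most of those called higher were interferon-stimulated genes. By limma, with Benjamini-Hochberg adjustment over all 14722 genes fitted and a threshold of 0.05, 18 of the 13555 genes changed (0.133%). Of these, 11 rose (0.0812%) and 7 fell (0.0516%). With median-of-ratios scaling, 11 rose and 4 fell. With sample weights, 170 rose and 156 fell, so the size of the set depends on the setting. The median log2 fold change over all genes was -0.08, with quartiles of -0.23 and 0.12, and the median standard error (SE) was 0.19. Fold changes here are on the log2(TPM + 1) scale, which understates the change of low genes. At an unadjusted p under 0.05, 734 genes were higher (5.41%) and 847 lower (6.25%). In 1125 genes (8.3%) every poly(dA:dT) library lay above every DMSO library, and in 1392 (10.3%) every one lay below. Some genes were under 1 TPM in all 3 libraries of a group. They passed the abundance filter only through the other group, so the filter fixed their separation. The count of calls rests on single libraries: it was 7 without DMSO replicate 3 and 7 without poly(dA:dT) replicate 1, all of them rises. The same 7 genes were called with each of the 12 libraries of the fit left out in turn and in each of the 15 other settings tried: IFI6, IFIT1, IFITM1, IRF9, OAS1, OAS2 and PARP9.

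Before the individual genes, the libraries themselves were compared. Across genes, libraries of the same siNC group correlated at 0.975 to 0.981, and libraries of different siNC groups at 0.965 to 0.982, so the ranges overlapped. All 9 mesenchymal markers, vimentin among them, reached 1 TPM in all 6 libraries, with a sum of 7244 to 8331 TPM. Of 24 markers of immune, endothelial, epithelial and other cells, CSF1R alone reached 1 TPM in all 6 libraries and 4 were at 0 in all 6. The summed level of those markers was 7.29 to 7.87 TPM in the DMSO libraries and 6.95 to 9.64 TPM with poly(dA:dT). NRAS itself, the gene left intact, stood at 59.6, 60.6 and 41.4 TPM in DMSO replicates 1, 2 and 3 and at 43.0, 45.9 and 51.7 TPM in poly(dA:dT) replicates 1, 2 and 3. These values overlapped, with a log2 fold change of -0.18 and an adjusted p of 0.655 by limma. All triplets of values below are in that order of replicates.

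The largest rise among called genes was in IFI6, an interferon-induced protein of mitochondria and the endoplasmic reticulum. Its level was 11.3, 16.5 and 14.0 TPM with DMSO and 119, 83.9 and 84.4 TPM with poly(dA:dT). The lowest treated library thus lay well above the highest control, and the log2 fold change was 2.69 (SE 0.16, limma adjusted p = 3.2e-06). IFIT1, which binds viral RNA lacking the host cap modification, went from 6.40, 7.15 and 5.98 TPM to 43.1, 31.4 and 48.5 TPM. Its log2 fold change was 2.46 (SE 0.15, limma adjusted p = 3.2e-06). These 2 genes stood apart from the other 9 that rose, whose log2 fold changes ran from 0.71 to 1.68. The related IFIT3, which forms complexes with IFIT1, rose from 3.18, 3.40 and 2.50 TPM to 9.96, 6.34 and 9.07 TPM, a log2 fold change of 1.22 (SE 0.18, limma adjusted p = 0.0148). IFIT3 was no longer called without poly(dA:dT) replicate 1, with an adjusted p of 0.114 by limma.

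IRF9, which recognises the ISRE, was the one member called among 20 measured interferon receptor and transcription factor genes. It was at 13.6, 14.8 and 17.5 TPM with DMSO and at 48.7, 44.8 and 46.4 TPM with poly(dA:dT). The 3 treated libraries lay within 4 TPM of each other, and the log2 fold change was 1.55 (SE 0.13, limma adjusted p = 0.000139). STAT2, which acts with IRF9, did not pass the test and overlapped, at 14.1, 15.9 and 16.7 TPM against 15.1, 16.9 and 20.0 TPM. IRF7, which amplifies interferon production, stayed at 0.698 to 1.49 TPM with DMSO and 0 to 1.07 TPM with poly(dA:dT).

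The oligoadenylate synthetases, which sense double-stranded RNA and activate RNase L, were led by OAS1 and OAS2. OAS1 rose from 3.85, 4.47 and 5.85 TPM to 16.1, 15.2 and 20.5 TPM, a log2 fold change of 1.68 (SE 0.20, limma adjusted p = 0.00405). OAS2 rose from 1.36, 1.71 and 1.61 TPM to 6.56, 6.06 and 7.84 TPM, a log2 fold change of 1.61 (SE 0.16, limma adjusted p = 0.000493). In both, the groups were separated by more than the spread within either. OAS3 did not pass the test, at 4.12, 4.38 and 4.24 TPM against 6.64, 5.81 and 9.33 TPM (limma adjusted p = 0.357).

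IFITM1, a membrane protein that blocks virus entry, rose from 17.4, 13.9 and 12.3 TPM to 54.4, 38.0 and 44.9 TPM, a log2 fold change of 1.59 (SE 0.20, limma adjusted p = 0.00484). Its close relative IFITM3 was far more abundant, at 617, 580.1 and 594 TPM against 1035, 856 and 901 TPM. IFITM3 had a log2 fold change of 0.63 and narrowly missed the threshold (limma adjusted p = 0.0616). IFITM2 was at 441 to 522 TPM with DMSO and 587 to 696 TPM with poly(dA:dT), with an adjusted p of 0.298 by limma. The 3 IFITM genes are highly similar in sequence, so the division of reads between them is uncertain.

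The remaining raised genes of this class were IFI27, IFI44 and PARP9. IFI27, an interferon-induced mitochondrial protein, rose from 14.2, 8.99 and 15.5 TPM to 50.6, 29.5 and 42.6 TPM, a log2 fold change of 1.59 (SE 0.26, limma adjusted p = 0.0291). IFI44 rose from 6.86, 6.40 and 6.91 TPM to 16.9, 12.4 and 16.5 TPM, a log2 fold change of 1.06 (SE 0.14, limma adjusted p = 0.0104). The DMSO values of IFI44 were tight, while IFI27 varied in both groups. After correction for GC content and length the log2 fold change of IFI27 was 1.61, with a limma adjusted p of 0.0579 that missed the threshold. PARP9, a macrodomain protein that works with the ubiquitin ligase DTX3L, rose from 6.38, 7.70 and 7.16 TPM to 15.3, 15.4 and 16.2 TPM, a log2 fold change of 1.04 (SE 0.12, limma adjusted p = 0.00367). DTX3L did not pass the test, at 11.9, 13.5 and 11.6 TPM against 13.6, 14.5 and 17.8 TPM (limma adjusted p = 0.489).

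**Figure D1:**
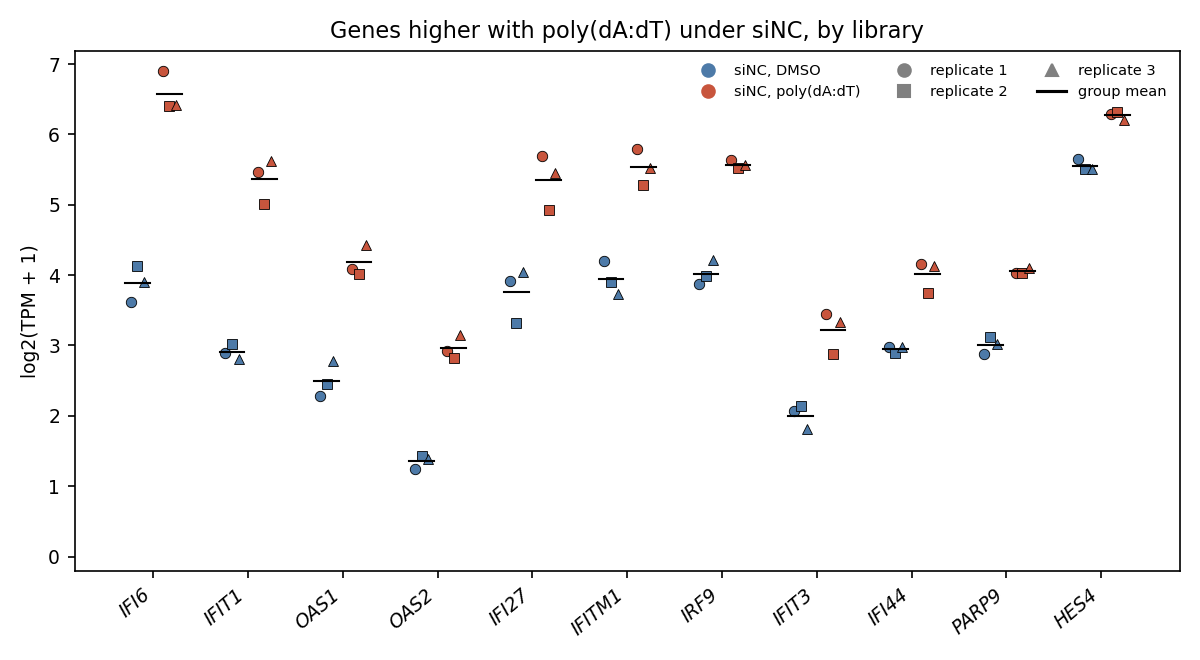
Level of the 11 genes that rose, as log2(TPM + 1) on the vertical axis, in the 3 DMSO libraries (blue) and the 3 poly(dA:dT) libraries (red) under siNC. Symbols mark the replicate and bars the group mean; in none of the 11 genes do the groups overlap, and poly(dA:dT) replicate 2 (square) is the lowest treated library in 9 of the 10 interferon-stimulated genes.

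Most of the 10 raised interferon-stimulated genes had the same lowest treated library, as the plot of raised genes by library shows. Poly(dA:dT) replicate 2 was the lowest treated library in 9 of them and the highest in none. Replicate 1 was the highest in 6 and replicate 3 in 4. The share of all genes with this order was not counted, and some spreads were small, such as that of PARP9.

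HES4, a Notch-pathway transcriptional repressor, was the one raised gene outside the interferon lists. It went from 49.2, 44.8 and 44.6 TPM to 77.4, 78.6 and 73.0 TPM, a log2 fold change of 0.71 (SE 0.11, limma adjusted p = 0.0265). Its longest transcript has a GC content of 73.9%, and after correction for GC content and length the log2 fold change was 0.24 with an adjusted p of 0.655 by limma. ISG15, an interferon-stimulated gene that lies next to HES4 in RefSeq, fell below the abundance filter. ISG15 was listed at 0 in all 3 DMSO libraries and at 0.414, 1.02 and 1.72 TPM with poly(dA:dT).

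A core list of 79 interferon-stimulated genes, chosen with earlier results of these data known, places these calls among their class. Of the 67 that were measured, 10 rose and none fell, against 0.0812% and 0.0516% of all genes. The median log2 fold change of the 67 was 0.36, beside -0.08 for all genes. In 40 of the 67 every treated library lay above every control (8.3% of all genes), and in none did every one lie below (10.3% of all genes). For RSAD2, and any other member under 1 TPM in every DMSO library, the filter fixed this separation. At an unadjusted p under 0.05, 37 of the 67 were higher and none lower, beside 5.41% and 6.25% of all genes. The list's 12 other members were below the abundance filter, at no more than 1.78 TPM. The response was uneven within the list, from IFI6 at 2.69 to IRF7 at -0.29 on the log2 scale.

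**Figure D2:**
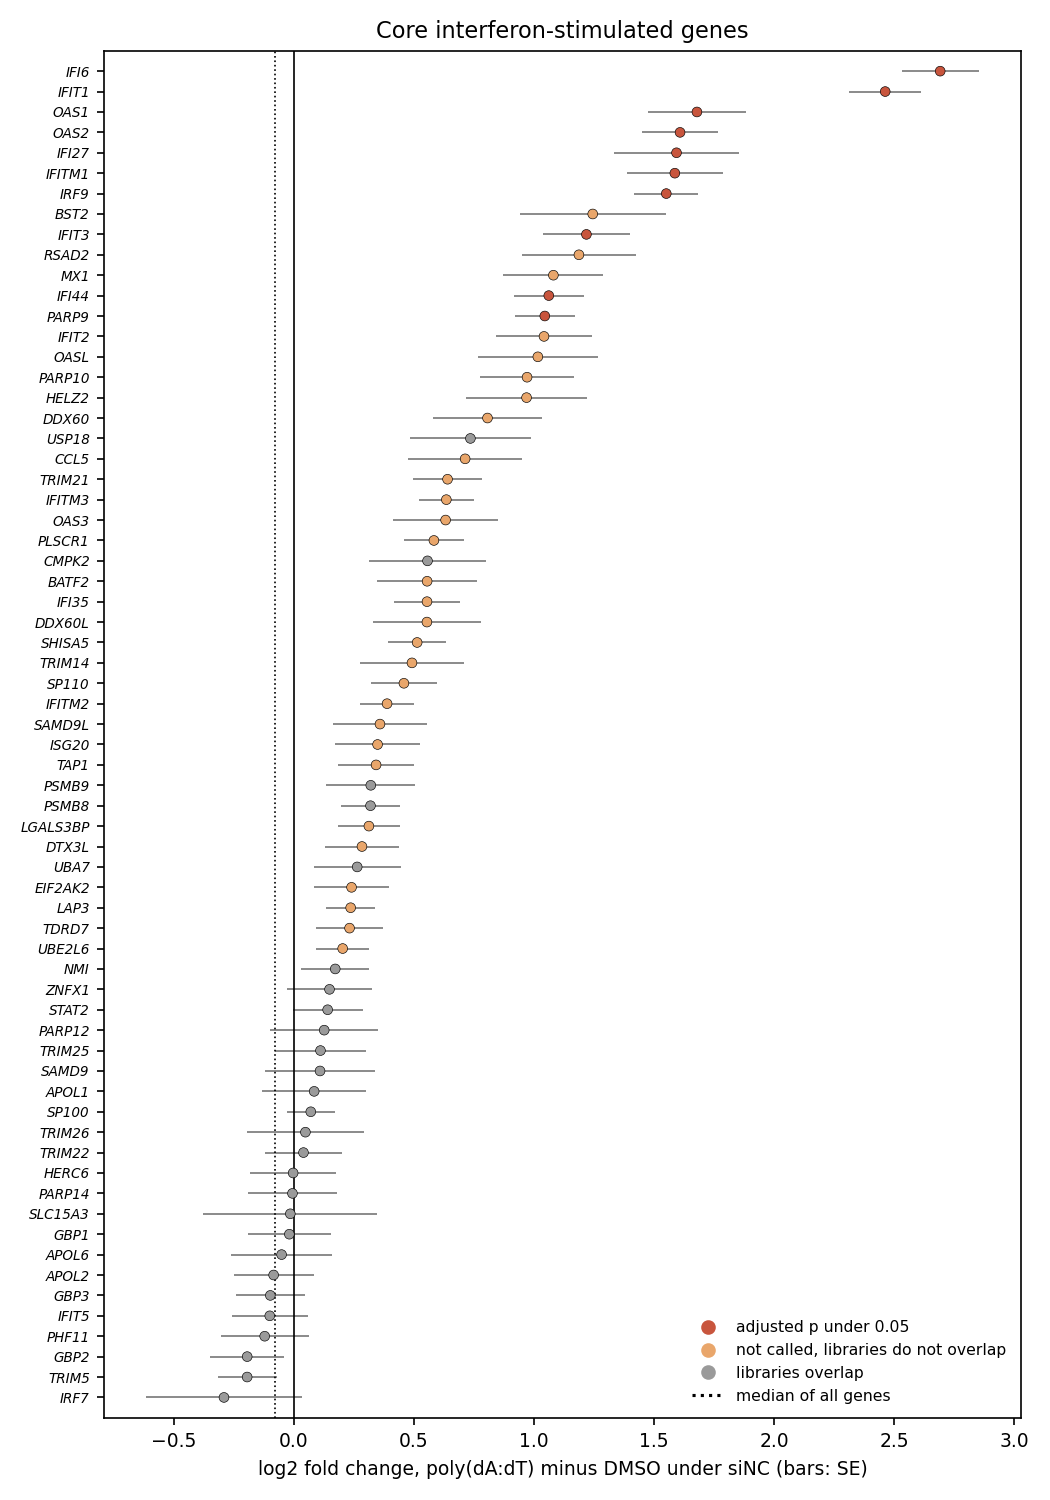
Log2 fold change of poly(dA:dT) against DMSO under siNC for 66 of the 67 measured core interferon-stimulated genes, with bars of 1 SE from the limma fit. Red genes passed the test, orange genes did not but had no overlap between libraries, grey genes overlapped, and the dotted line is the median of all genes at -0.08.

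Many members below the threshold had separated libraries, and a few are given here, chosen after their values were seen. MX1, a GTPase that blocks viral replication, was at 1.03, 0.983 and 1.73 TPM against 4.45, 2.95 and 3.83 TPM (log2 fold change 1.08, limma adjusted p = 0.0884). IFIT2 was at 1.19, 1.55 and 1.32 TPM against 4.82, 3.27 and 3.56 TPM (log2 fold change 1.04, limma adjusted p = 0.0857). RSAD2, which encodes viperin and passed the filter only through the treated libraries, was at 0 to 0.306 TPM against 1.14 to 2.49 TPM. These 3 are low genes, for which a pseudocount of 1 shrinks the fold change, and all 3 were called with a pseudocount of 0.1. PARP10 was at 9.98, 10.2 and 11.96 TPM against 26.3, 16.9 and 23.5 TPM (log2 fold change 0.97, limma adjusted p = 0.102). BST2, or tetherin, was at 1.78 to 2.59 TPM against 4.65 to 9.66 TPM. PLSCR1 was at 50.7 to 70.6 TPM against 80.3 to 95.4 TPM.

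Other members of the core list overlapped between groups at readily measured levels. PARP14 was at 6.94, 9.59 and 8.25 TPM against 8.21, 6.99 and 9.43 TPM, with a log2 fold change of -0.01. SP100, a nuclear-body protein, was at 98.2 to 106 TPM against 97.5 to 118 TPM. A p that misses the threshold does not show that these levels were the same.

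A second list, the interferon-alpha response genes, shares 54 members with the core list and is therefore not independent of it. Of its 97 members, 86 were measured, and 7 rose and none fell (0.0812% and 0.0516% of all genes). Their median log2 fold change was 0.20, and in 34 of the 86 every treated library lay above every control (8.3% of all genes), while in none did every one lie below (10.3% of all genes).

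The ISRE occurred in promoters of core genes whether or not their libraries overlapped. It was present in 30 of the 49 measured core genes with a promoter in the table (61.2%). It was present in 21 of the 33 whose treated libraries all lay above the controls (63.6%), and in 9 of the 16 whose libraries overlapped (56.2%). These shares describe the sequences, and the difference was not tested.

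The genes that make the interferon itself were near or at 0. None of the 20 type I and III interferon genes reached the abundance filter, and 17 were listed at 0 in all 6 siNC libraries. IFNB1, the usual first product of IRF3, was listed at 0 in 5 libraries and at 0.108 TPM in poly(dA:dT) replicate 3. IFNL1 was listed at 0 in all 6. IFNE, an epithelial interferon, had the highest level of the list and was named after its values were seen, at 1.29, 1.23 and 0.98 TPM with DMSO against 0.758, 0.463 and 0.209 TPM with poly(dA:dT). The library depth is unknown, so no limit can be set on what a listed 0 allows.

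Most genes of the sensing machinery upstream were measured, and none of those passed the test (0.133% of all genes did). Another 6 sensors and adaptors fell below the abundance filter, and 3 of these were listed at 0 in all 6 siNC libraries. Of 36 cytosolic sensors and adaptors, 29 were measured; the median log2 fold change was -0.01, and every treated library lay above the controls in 3 and below them in 3 (8.3% and 10.3% of all genes, to which these shares are close). CGAS was low, at 2.02, 1.95 and 1.22 TPM against 1.22, 2.60 and 2.38 TPM. STING1 was more abundant, at 49.4, 55.3 and 59.8 TPM against 60.3, 52.6 and 67.6 TPM. Neither gene separated the groups. The adaptor MAVS was at 4.33 to 6.09 TPM against 4.82 to 5.42 TPM. The kinase gene TBK1 was at 21.9 to 32.5 TPM against 19.1 to 22.4 TPM, and IRF3 at 34.4 to 45.1 TPM against 43.7 to 64.9 TPM.

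The RNA sensors included members that are themselves induced by interferon. DDX58, which encodes RIG-I, was at 13.9, 14.5 and 11.3 TPM against 19.3, 17.2 and 19.5 TPM. All 3 treated libraries were higher, but the log2 fold change of 0.47 (SE 0.13) did not pass the test (limma adjusted p = 0.256). After correction for GC content and length it was 0.69 with an adjusted p of 0.0304 by limma. IFI16, a nuclear DNA sensor, was at 122, 125 and 109 TPM against 140.0, 143 and 155 TPM (log2 fold change 0.30, limma adjusted p = 0.314). After the same correction it was 0.53 with an adjusted p of 0.0181 by limma. DHX58 overlapped, at 1.90 to 3.05 TPM against 2.73 to 4.76 TPM, and IFIH1, which encodes MDA5, was below the filter at 0 to 0.728 TPM over the 6 libraries.

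RNA polymerase III, the enzyme that can transcribe AT-rich DNA, showed no called subunit among 18 measured (0.133% of all genes were called). The median of the list was 0.00 on the log2 scale. POLR3A, the largest subunit, was at 10.4, 12.1 and 11.0 TPM against 9.20, 9.28 and 11.4 TPM. The smallest p in the list was that of POLR3K, at 23.0, 20.1 and 24.98 TPM against 30.0, 26.4 and 29.3 TPM (log2 fold change 0.32, limma adjusted p = 0.411). Among 15 measured nucleases and nucleotide-handling genes, none passed the test, and RNASEH2C was at 49.6, 53.3 and 56.9 TPM against 40.7, 45.8 and 30.6 TPM (limma adjusted p = 0.374).

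Inflammatory, chemokine and antigen presentation genes did not pass the test. Of 27 NF-kB and inflammatory genes measured, none was called (0.133% of all genes were), and their median log2 fold change was 0.07. None had an unadjusted limma p under 0.05, beside 5.41% of all genes higher and 6.25% lower. Of 10 measured chemokine and checkpoint genes, CCL5 had the smallest p, at 0.399, 0.531 and 0.656 TPM against 1.29, 1.00 and 2.40 TPM (limma adjusted p = 0.349). CCL5 passed the abundance filter only through the treated libraries, so the filter fixed its separation. CXCL10, a chemokine that draws T cells, was below the filter, listed at 0 in all 3 DMSO libraries and at 1.20, 0.154 and 0.697 TPM with poly(dA:dT). Of 24 measured genes of MHC class I presentation, 3 had every treated library above the controls and 3 below (8.3% and 10.3% of all genes), and the median was 0.08. HLA-B was at 15.6 to 22.4 TPM against 19.1 to 27.5 TPM, and B2M at 1723 to 1985 TPM against 1647 to 1899 TPM. PSME2, a proteasome activator subunit, was at 156, 172 and 147 TPM against 214, 192 and 204 TPM (limma adjusted p = 0.220). None of 11 measured inflammasome and pyroptosis genes separated the groups, beside 8.3% of all genes above and 10.3% below.

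Genes downstream of NRAS and genes of growth and stress gave no call in this comparison either. Of 34 measured ERK target genes, 10 had every treated library above the controls (8.3% of all genes) and 3 below (10.3%). Their median log2 fold change was 0.02. The 2 with the smallest p were PHLDA2, at 336, 334 and 279 TPM against 507, 449 and 400.4 TPM (limma adjusted p = 0.260), and IER2, at 127 to 132 TPM against 157 to 179 TPM. These genes are GC-rich, at 63.1% and 61.7%. No member was called among 42 cell division genes, 29 p53 targets, 26 integrated and endoplasmic reticulum stress genes, 13 BCL2 family genes, 31 sterol and fatty acid synthesis genes, 42 extracellular matrix and mesenchymal genes and 14 heat shock and metallothionein genes. Their medians ran from -0.10 to 0.04, around the -0.08 of all genes, of which 0.133% were called. BID, a BCL2 family member that promotes cell death, had the smallest p among them, at 41.1, 38.6 and 35.0 TPM against 64.3, 52.1 and 71.0 TPM (limma adjusted p = 0.120).

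In all, 7 genes fell, and 6 of them are noncoding RNAs or pseudogenes. Of all 13555 genes measured, 11604 are annotated as protein-coding. The protein-coding gene TUSC2, a mitochondrial tumour suppressor candidate, fell from 51.2, 53.6 and 61.4 TPM to 23.3, 26.5 and 17.8 TPM. Its groups were well separated, with a log2 fold change of -1.27 (SE 0.18, limma adjusted p = 0.0109). NEAT1, the long noncoding RNA that scaffolds nuclear paraspeckles, fell from 355, 325 and 414 TPM to 209, 228 and 235 TPM, a log2 fold change of -0.69 (SE 0.10, limma adjusted p = 0.0144). After correction for GC content and length it was -0.49 with an adjusted p of 0.181 by limma. MALAT1, the neighbouring nuclear RNA, was named after its values were seen and overlapped, at 142 to 194 TPM against 90.8 to 167 TPM.

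The other 5 were pseudogenes and low noncoding entries. The pseudogene RPL23AP42 fell from 93.0, 154 and 403 TPM to 0, 14.0 and 2.50 TPM, a log2 fold change of -5.59 (SE 0.88, limma adjusted p = 0.0242). Its parent gene RPL23A did not follow, at 3460 to 3821 TPM against 3582 to 4042 TPM, and reads of such near-identical copies can be divided between them. The processed pseudogene AP001324.1 fell from 13.8, 12.6 and 11.5 TPM to 1.47, 2.75 and 3.05 TPM, a log2 fold change of -2.02 (SE 0.29, limma adjusted p = 0.0115). AC025257.1, an antisense gene, fell from 6.06, 6.83 and 12.9 TPM to 0, 0 and 0.744 TPM (limma adjusted p = 0.0221). No strand setting is given, so reads of an antisense gene and its partner cannot be told apart. MIRLET7A1HG, a host gene of let-7 microRNAs, was at 3.12, 3.75 and 1.57 TPM with DMSO and listed at 0 in all 3 treated libraries (limma adjusted p = 0.0109). WFDC21P, a transcribed pseudogene, was at 1.64, 1.87 and 1.54 TPM with DMSO and listed at 0 in all 3 treated libraries (limma adjusted p = 0.0349). A listed 0 can be a failed estimate, so no fold is given for these 2. AC025257.1, MIRLET7A1HG and WFDC21P passed the abundance filter only through the DMSO libraries. The filter thus fixed that their groups do not overlap. None of the 7 was called without DMSO replicate 3, and none without poly(dA:dT) replicate 1. Of the 7, TUSC2 alone was called without DMSO replicate 1, and NEAT1 alone without DMSO replicate 2.

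**Figure D3:**
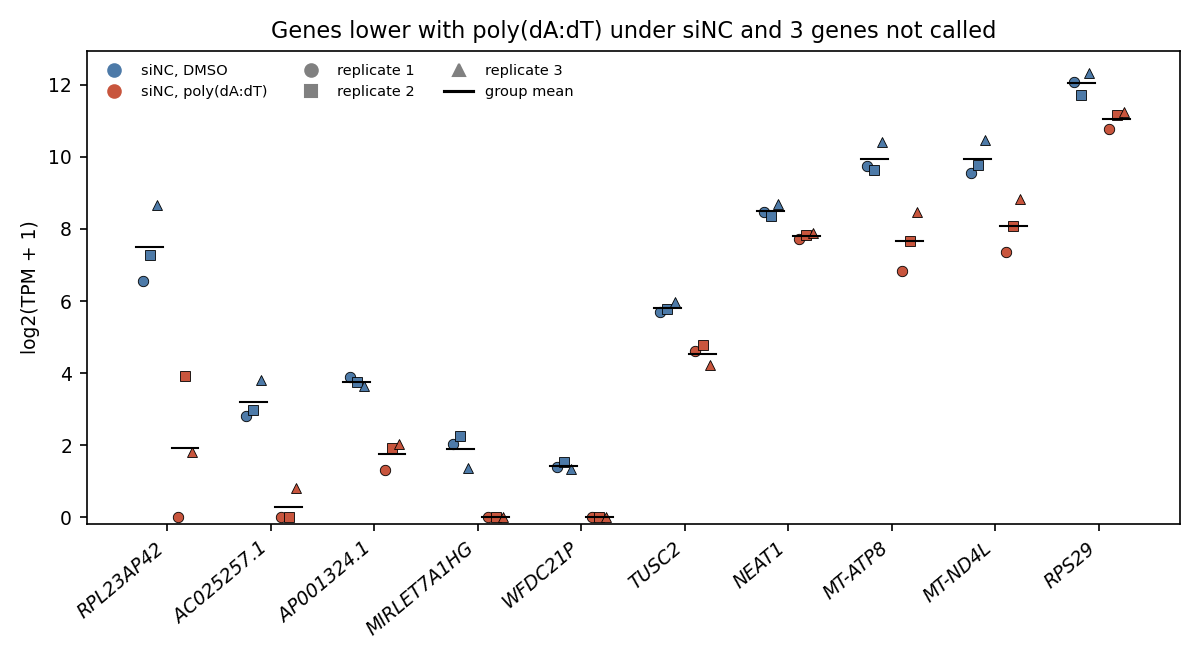
Level as log2(TPM + 1) of the 7 genes that fell (RPL23AP42 to NEAT1) and of MT-ATP8, MT-ND4L and RPS29, which did not pass the test, in the 3 DMSO libraries (blue) and the 3 poly(dA:dT) libraries (red) under siNC. Symbols mark the replicate and bars the group mean. No gene shown overlaps between groups, and MIRLET7A1HG and WFDC21P are at 0 in every treated library. For these and AC025257.1, all under 1 TPM in every treated library, the abundance filter fixed the separation.

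Mitochondrial and ribosomal protein mRNAs included large differences that did not pass the test. MT-ATP8, a mitochondrial ATP synthase subunit, was at 857, 798 and 1359 TPM against 114, 202 and 351 TPM (log2 fold change -2.28, SE 0.40, limma adjusted p = 0.0507). MT-ND4L was at 752, 873 and 1415 TPM against 165, 269.99 and 452 TPM (limma adjusted p = 0.0834). Both reading frames overlap a longer neighbour on the same mitochondrial transcript. Those neighbours, MT-ATP6 and MT-ND4, both had a log2 fold change of -0.18 and overlapped between groups. Of 13 mitochondrial mRNAs none was called, the median was -0.18, and 12 had a negative log2 fold change. Over all 13555 genes the median was -0.08, and 8294 had a negative log2 fold change. Every treated library lay above the controls in 1 of the 13 and below them in 3 (8.3% and 10.3% of all genes). Among 77 ribosomal protein genes none was called, with 18 having every treated library above the controls and 14 below (8.3% and 10.3% of all genes). RPS29 was at 4356, 3346 and 5157 TPM against 1753, 2294 and 2438 TPM (limma adjusted p = 0.0616), while RPS28 was at 2419, 2173 and 2563 TPM against 4195, 3966 and 3497 TPM (limma adjusted p = 0.111). The 2 genes lay on opposite sides, with GC contents of 42.8% and 59.9%.

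Among non-overlapping genes whose higher group averaged 5 TPM or more, 6 of the 10 highest fold changes were those of called genes (IFI6, IFIT1, OAS1, OAS2, IFI27 and IFITM1). The other extremes included pseudogenes and antisense genes that did not pass the test. FABP5P7 was at 0, 0.405 and 4.32 TPM against 30.1, 9.77 and 32.3 TPM, a log2 fold change of 3.51 (SE 0.88, limma adjusted p = 0.212). FOXD1-AS1 was at 88.0, 65.3 and 63.6 TPM against 1.26, 0 and 0 TPM (limma adjusted p = 0.122), while FOXD1 itself was at 56.6 to 76.1 TPM against 76.8 to 96.2 TPM. SNURF, which shares transcripts with SNRPN, was at 21.0, 20.4 and 8.90 TPM against 1.01, 1.31 and 2.23 TPM (limma adjusted p = 0.101). SNRPN was at 72.7 to 78.9 TPM against 88.9 to 95.7 TPM. The pseudogene BZW1P2 was at 75.4, 89.9 and 84.6 TPM with DMSO, near 0 in treated replicates 1 and 2 and at 32.8 TPM in treated replicate 3 (limma adjusted p = 0.144). Its parent BZW1 also had every treated library below the controls, at 488 to 517 TPM against 346 to 440.2 TPM (limma adjusted p = 0.350). The division of reads between such entries is uncertain. Over all 13555 genes, 156 had a log2 fold change beyond 1 in either direction, and 16 of these were called.

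Small differences across all genes followed base composition. The log2 fold change correlated with the GC content of the longest transcript at a Spearman rho of 0.54 over 13398 genes that share the same 6 libraries, and with transcript length at -0.26. The median log2 fold change was -0.22, -0.15, -0.02 and 0.15 over 4 equal bins of genes, from the lowest to the highest GC content. In the GC-richest bin, every treated library lay above the controls in 709 of 3350 genes and below in 72. In the GC-poorest bin the counts were 50 and 562. The difference ran through single libraries: the GC-richest bin had a median deviation of -0.21, -0.06 and 0.03 in the DMSO libraries and of 0.15, 0.07 and 0.03 with poly(dA:dT), on the log2 scale. Replicates 3 of both groups thus had nearly the same level for these genes. The part of this trend in the gene-level results was not tested beyond the correction, after which 28 genes were called, 18 higher and 10 lower. Among the 11 raised genes, the 7 named as called throughout passed with the correction too, as did IFI44 and IFIT3.

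**Figure D4:**
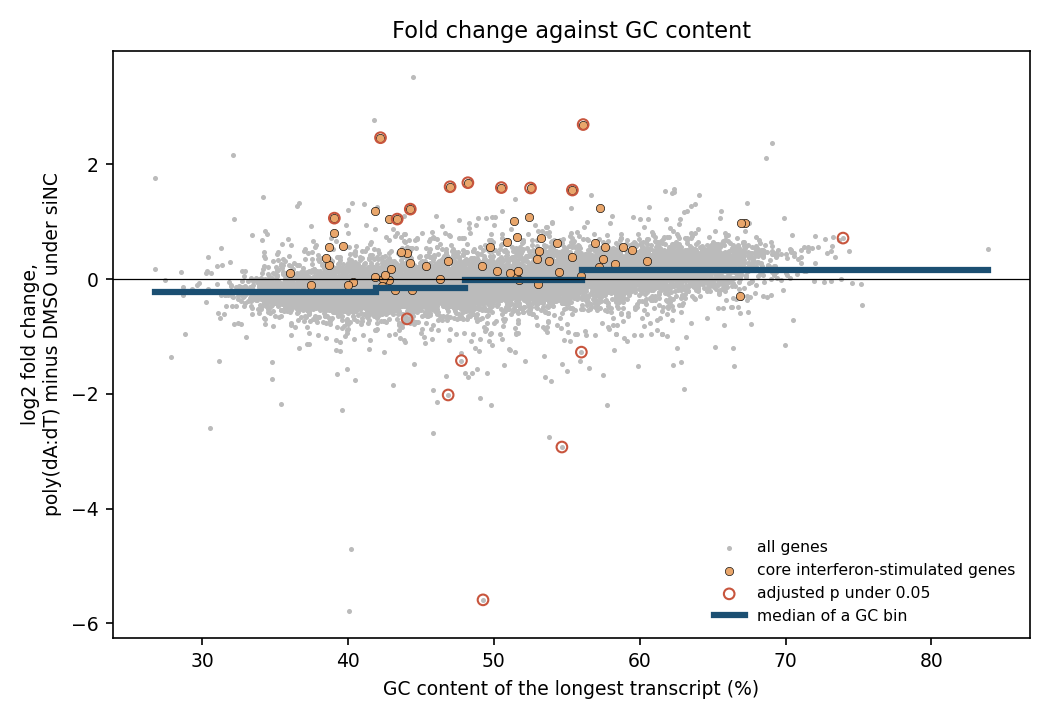
Log2 fold change of poly(dA:dT) against DMSO under siNC (vertical) against the GC content of the longest transcript (horizontal), for 13398 genes in grey, with the core interferon-stimulated genes in orange and called genes circled in red (MIRLET7A1HG has no GC value). Blue bars are the median of each of the 4 GC bins and run from -0.22 to 0.15, while 10 circled core genes lie at 1 or more at GC contents of 39.1% to 56.1%.

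The response with NRAS intact was set beside that after siRNA against mutant NRAS, to show where the 2 differ. NRAS stood at 15.5, 15.2 and 19.9 TPM in the siQ61K libraries with DMSO and at 20.1, 20.3 and 23.5 TPM in those with poly(dA:dT), below all 6 siNC libraries. The difference was tested as an interaction, the response under siQ61K minus that under siNC, in the same limma fit. It was larger under siQ61K in 862 of the 13555 genes (6.36%) and smaller, or more negative, in 1765 (13%). The count of larger responses was 195 after GC and length correction, 1331 when scaled by median of ratios and 1399 when normalized by quantiles. Base composition moved with these groups too: the GC-richest bin had a median deviation of 0.27 to 0.37 in the siQ61K DMSO libraries and of -0.33 to 0.03 in those with poly(dA:dT). Under siQ61K 984 of the 13555 genes rose with poly(dA:dT) (7.26%), and of the 67 measured core interferon-stimulated genes 55 rose. Of the 93 interferon-alpha response genes in the fit, 43 had a larger response under siQ61K and 2 a smaller one, against 6% of all 14722 genes fitted for the larger. After GC and length correction 40 had a larger response. The interaction uses the same 6 siNC libraries that picked the called genes, so the values below for those genes are a description beside their own responses.

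IFI44 had the widest gap among the genes that rose, with a log2 fold change of 1.06 under siNC and 4.07 under siQ61K (interaction 3.01, limma adjusted p = 2.5e-05). IFIT3 stood at 1.22 and 3.84 (interaction 2.62, limma adjusted p = 0.000367), and OAS2 at 1.61 and 4.05 (interaction 2.44, limma adjusted p = 0.000216). IFI6, the most raised under siNC, differed less, at 2.69 and 4.10 (interaction 1.41, limma adjusted p = 0.0063). In 9 of the 11 raised genes the response was larger under siQ61K by this test, beside 6.36% of all genes. IRF9 and HES4 were the others: IRF9 had a log2 fold change of 1.55 under siNC and 1.58 under siQ61K, with an interaction of 0.03 (SE 0.19, limma adjusted p = 0.938). HES4 stood at 0.71 and 0.73, with an interaction of 0.01 (limma adjusted p = 0.966). DDX58, which did not pass the test under siNC, had a log2 fold change of 2.71 under siQ61K, with an interaction of 2.24 (limma adjusted p = 5.99e-05). Among the 7 genes that fell under siNC, the interaction passed the test in all but AC025257.1, and TUSC2 had a log2 fold change of -0.09 under siQ61K. MIRLET7A1HG was listed at 0 in every siQ61K library, so its interaction only restates its change under siNC.

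**Figure D5:**
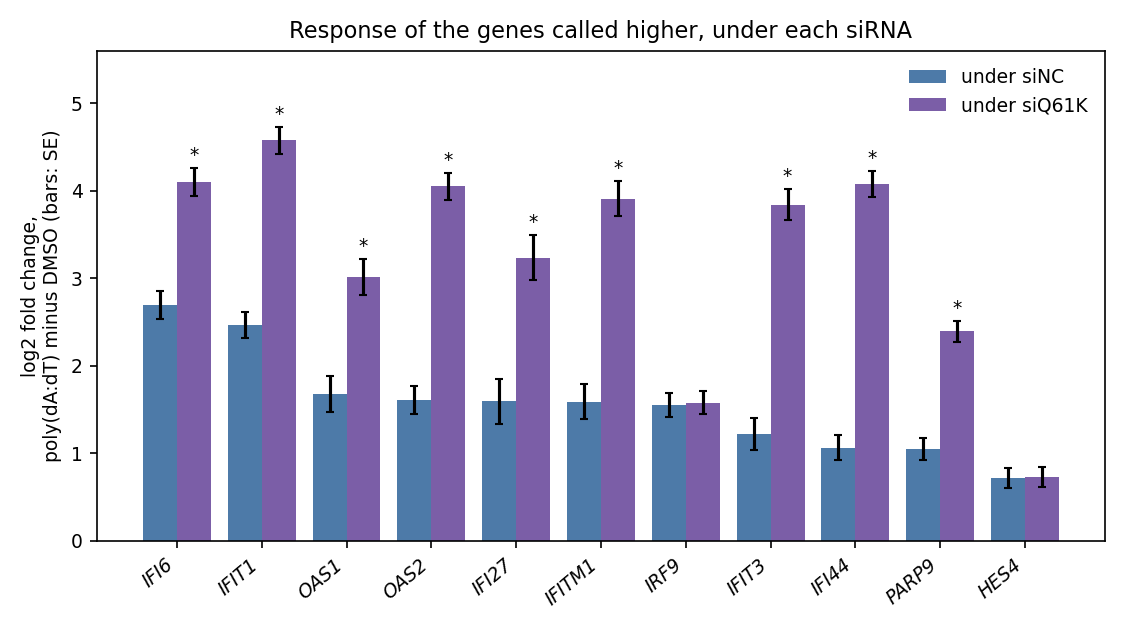
Log2 fold change of poly(dA:dT) against DMSO for the 11 genes that rose under siNC, in cells with siNC (blue) and with siQ61K (purple), with bars of 1 SE from the limma fit. A star marks a limma interaction with an adjusted p under 0.05, present in 9 of the 11 genes and absent for IRF9 and HES4.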

How the data were processed

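The deposited table gives TPM per gene symbol, made by the authors with Salmon 0.8.0 and hg19, per the submitters' processing notes; the annotation is not given in the sources used here. Libraries were prepared from total RNA with a NEBNext Ultra kit for NovaSeq sequencing, per the labels' protocols. TPM keeps no depth, so depth is unknown. The 984 entries sharing 58 symbols were left out.

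Values of log2(TPM + 1) from all 12 libraries were fitted together by limma 3.58.1 under R 4.3.3 with a variance trend. Genes needed 1 TPM or more in 3 libraries or more, and p-values were adjusted by Benjamini-Hochberg over the 14722 genes fitted. An exact permutation test of 3 libraries against 3 cannot go below p = 0.1, so none is given. Fitted procedures were tested on simulated data.

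GC content and length came from GENCODE transcripts, joined by symbol for 98.8% of genes. The correction was a lowess of each library (span 0.3). Promoters and gene neighbours came from RefSeq GRCh38.p14.

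The genes and the 22 lists were chosen with earlier results of these data known. Named genes were every called gene, the 10 highest and 10 lowest fold changes at a mean of at least 5 TPM without overlap, up to 4 genes of each list with the smallest p, and a fixed set of sensing and interferon genes; results for some of them are not reported here. Genes outside that rule were chosen after their values were seen: IFITM2, IFITM3, IFIT2, MX1, RSAD2, PARP10, PARP14, BST2, PLSCR1, SP100, OAS3, DTX3L, IFNE and the relatives and neighbours of named genes. Other settings tried were other pseudocounts, filters, scalings, variance models, sample weights, fewer libraries, a replicate block and GC correction.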

Additional observations from a re-analysis of the deposited data

Results flagged for a closer look

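For 15 of the 18 genes called under siNC, cells with siQ61K responded differently by the interaction term of the limma fit (adjusted p under 0.05). Over all 13555 genes, the response was larger under siQ61K in 6.36% and smaller, or more negative, in 13%. The 18 genes were picked by their response under siNC, which enters the interaction. The differences that follow are the response under siQ61K minus that under siNC, on the log2(TPM + 1) scale. Among genes that rose under siNC, the difference was 3.01 for IFI44, 2.62 for IFIT3, 2.44 for OAS2, 2.32 for IFITM1, 2.11 for IFIT1, 1.64 for IFI27, 1.41 for IFI6, 1.35 for PARP9 and 1.33 for OAS1. All 9 had the larger response under siQ61K. For IFI6 and IFIT1 among them, the DMSO levels were already higher under siQ61K than under siNC.

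Among genes that fell under siNC, the difference was 12.01 for RPL23AP42, 3.41 for AP001324.1, 1.18 for TUSC2 and 0.590 for NEAT1. RPL23AP42 and AP001324.1 had log2 fold changes of 6.42 and 1.39 under siQ61K, opposite to those under siNC. Both are pseudogenes, and reads of RPL23AP42 can be divided with its parent gene RPL23A. Its log2 fold change under siNC ran from -6.86 to -4.37 over the settings tried. The differences for MIRLET7A1HG (1.88) and WFDC21P (1.68) rest on groups listed at 0 and depend on the pseudocount. That of MIRLET7A1HG, listed at 0 in every siQ61K library, only restates its change under siNC.

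In the interferon-alpha response list, the response was larger under siQ61K for 43 of the 93 genes fitted and smaller for 2. The share with a larger response was 6% of all 14722 genes fitted. A smaller response was found in 13% of the 13555 genes measured under siNC. These differences share the siNC libraries with the calls under siNC.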

How the results depend on the processing

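The 18 calls were 9 with no filter on low values, 326 with sample weights, 34 in a fit to the 6 siNC libraries alone, 28 after GC and length correction and 28 with that correction and a replicate block together. The cause was not tested. Leaving out 1 library gave 7 to 37 calls: 10 and 9 without DMSO replicates 1 and 2, 7 without DMSO replicate 3, 7 without poly(dA:dT) replicate 1, and 37 without siQ61K poly(dA:dT) replicate 1. The split was 11 higher to 4 lower with median-of-ratios scaling, 14 to 4 with a pseudocount of 0.1, 8 to 1 with no filter, 19 to 15 in the fit to the siNC libraries, 170 to 156 with sample weights and 8 to 8 without poly(dA:dT) replicate 3, beside 11 to 7. Over the called genes and all settings, 394 results kept their call, 84 lost it and 0 changed direction.

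The replicate number as a block gave 22 calls, the original 18 among them. Same-numbered libraries of the siNC groups did not deviate together (r of -0.06, -0.07 and -0.11), so the numbers were not taken as pairs. The count of 43 interferon-alpha response genes with a larger response under siQ61K was 42 with the block and 34 to 49 over all settings, and 34 to 43 with 1 library left out.

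After GC and length correction HES4 (log2 fold change 0.71 to 0.24) and NEAT1 (-0.69 to -0.49) lost their calls, as did IFI27 with a fold change that stayed as large (1.59 to 1.61). MIRLET7A1HG could not be corrected. Unknown depth limits what can be said of genes near 0.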
